A study of Xenopus tropicalis with 24 samples.

Results

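The genes described here are 36 listed members of the apoptosis machinery, namely caspases, the BCL2 family, inhibitors of apoptosis, death receptors with their adaptors, and proteins that leave the mitochondrion or cut DNA during cell death. A gene counted as a member when its name in the count table equalled a listed symbol, with or without a final dot and digits. By that rule 35 of the 36 were found among 26531 genes, and birc3 was not matched. Members were measured by RNA sequencing in tail and intestine of Xenopus tropicalis tadpoles at stage 54, before metamorphic climax, in a series set up to compare thyroid hormone target genes with and without the hormone receptor. There were 8 groups of 3 libraries. In each organ these were TRDKO tadpoles given 5 nM of the thyroid hormone T3 for 18 h, TRDKO tadpoles without treatment, WT tadpoles given the same T3 dose, and WT tadpoles without treatment, with treatment at 25 °C. TRDKO is taken to be a double knockout of the thyroid hormone receptor genes thra and thrb. Its alleles, the number of clutches and whether animals were pooled are not given in the sources used here, and groups are called by their labels throughout.

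Apoptosis is run by caspases, proteases that lie inactive until an initiator is clustered and then cleaves the executioners, which take the cell apart. In the mitochondrial route BH3-only proteins block the guardians of the BCL2 family, the effectors open the outer membrane, and released cytochrome c assembles with APAF1 into the apoptosome that activates caspase 9. In the death receptor route FAS or a TNF receptor recruits FADD to activate caspase 8. At metamorphosis thyroid hormone drives the death of tail muscle, notochord and skin and of the larval intestinal epithelium, and caspase genes are among those described as hormone induced in frog tails.

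Library totals ran from 17577407 to 24699154 counted fragments, and levels are given as CPM, counts scaled to a common library total by trimmed means over all samples, and log2 fold changes are given ± SE. Tail WT control replicates 1 and 3 showed no detectable difference beyond sampling noise, with a mean chi-square per gene of 1.013 (p = 0.1255), so their counts were added and they enter as 1 sample, which leaves 2 samples in that group. Nothing in the labels says that replicates are separate animals, and the p-values reflect the spread among these libraries alone, which may be technical. The fits put the biological coefficient of variation at 1.68% for tail and 6.28% for intestine. A single library was unlike its partners, replicate 3 of intestine TRDKO T3, with a mean chi-square of 22.79 and 27.6 against the other 2 libraries, where the other 22 pairs of libraries of 1 group lay between 1.013 and 2.148. Transcripts of the targeted genes were counted in every TRDKO library, so the counts do not check the lesion. In tail, thra ranged over 8.74 to 10.8 CPM in TRDKO T3, 6.38 to 8.36 CPM in TRDKO control, 3.62 to 4.78 CPM in WT T3 and 8.25 to 8.58 CPM in WT control. In the same groups thrb ranged over 46.8 to 49.1, 24.1 to 26.5, 50.6 to 53.4 and 6.24 to 7.38 CPM. In intestine thra ranged over 3.72 to 14.9, 4.96 to 5.51, 7.07 to 9.19 and 8.504 to 11.2 CPM in that order, and thrb over 28.4 to 42.4, 4.91 to 5.57, 66.5 to 67.5 and 3.41 to 3.49 CPM. The hormone-induced transcription factor gene thibz rose with T3 in TRDKO tail by 5.85 ± 0.12 (edgeR adjusted p = 7.87e-59) and in WT tail by 6.12 ± 0.12 (edgeR adjusted p = 2.05e-61) on the log2 scale. The hormone target klf9 rose with T3 in TRDKO tail by 3.37 ± 0.10 (edgeR adjusted p = 2.42e-46), in TRDKO intestine by 2.61 ± 0.29 (edgeR adjusted p = 7.86e-06) and in WT intestine by 0.75 ± 0.26 (edgeR adjusted p = 0.023). In WT tail klf9 fell, at 8.48, 8.67 and 7.51 CPM with T3 against 15.2 and 15.2 CPM in the WT controls. Markers of muscle summed to 17320 to 25200 CPM over the tail groups and 2.19 to 7.738 CPM over the intestine groups. Markers of intestinal epithelium summed to 7297 to 10250 CPM over the intestine groups and 338 to 481.2 CPM over the tail groups. In WT control tails 8 of these 9 epithelium markers lay under 1 CPM, so that nearly all of the sum there came from 1 marker. Between WT controls 8 of the 9 were lower in tail than in intestine and 1 was higher, by 12.45 on the log2 scale.

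In most comparisons a majority of the members passed the test, as did a majority of all genes. A gene was called when edgeR's quasi-likelihood test gave an adjusted p below 0.05 over all genes tested, and the low-count filter kept 33 of the 35 members in tail and 34 in intestine. T3 against control in TRDKO tail changed 19 of 33 members, 12 up and 7 down (10 and 9 with upper-quartile scaling), against 52.9% of all genes called, 26.7% up and 26.2% down. In WT tail it changed 27 of 33, 13 up and 14 down, against 68.9% of all genes, 35.4% up and 33.5% down. In TRDKO intestine T3 changed 14 of 34, 8 up and 6 down, against 40.9% of all genes, 20.6% up and 20.3% down. In WT intestine it changed 24 of 34, 13 up and 11 down, against 60.5% of all genes, 30.3% in each direction. Without the divergent replicate 3 of intestine TRDKO T3, 21 members changed in TRDKO intestine, 11 up and 10 down. The number called over all genes also went up in that fit, from 6343 to 9004. Among controls, TRDKO tail differed from WT tail in 26 of 33 members, 9 higher and 17 lower (11 and 13 with upper-quartile scaling), against 73.1% of all genes, 36.4% higher and 36.6% lower. TRDKO control intestine differed from WT control intestine in 19 of 34, 6 higher and 13 lower (10 and 10 with upper-quartile scaling, 3 and 13 with RLE size factors), against 57.8% of all genes, 29.1% higher and 28.7% lower. The 2 comparisons of an organ that use the WT controls, the T3 effect in WT and the genotype difference, share those controls. Likewise the T3 effect in TRDKO and the genotype difference share the TRDKO controls, so a low TRDKO control enters both. In TRDKO and in the genotype differences the share of members called lay close to that of all genes, and such a share is no result about the members. With T3 in WT the shares of members were higher, at 81.8% in tail and 70.6% in intestine beside 68.9% and 60.5%. Those differences in share were not tested and are no result about the members either.

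Most changes were of less than 2-fold. With T3 the members' median absolute log2 fold change was 0.12 in TRDKO tail and 0.22 in WT tail, beside 0.176 and 0.346 over all genes. It was 0.18 in TRDKO intestine and 0.3 in WT intestine, beside 0.228 and 0.351. For TRDKO against WT controls it was 0.33 in tail and 0.17 in intestine, beside 0.352 and 0.315. Rises and falls offset each other in the signed median. That median with T3 was 0.06 in TRDKO tail and -0.01 in WT tail, beside -0.004 and 0.021 over all genes of the same 2 comparisons. It was 0.01 in TRDKO intestine and 0 in WT intestine, beside 0.001 and 0.011. Among controls the signed median of TRDKO against WT was -0.12 in tail and -0.08 in intestine, beside 0.007 and 0.01 over all genes. With T3 a change of 2-fold or more was called for bcl2l11 in TRDKO intestine, fas in WT tail and tnfrsf21 in WT intestine, and for no member in TRDKO tail. Between TRDKO and WT controls 4 members did so in intestine, fas, tnfrsf21, bcl2l11 and bmf, all lower in TRDKO. In tail fas, tnfrsf21 and bcl2l11 did so, again lower, and bmf lay just short of it at a ratio of 0.5006. The share of all genes past 2-fold is not given here, so these counts are no result about the members as a set. In whole-organ RNA, fewer cells of a type and less RNA per cell cannot be told apart.

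In intestine the exocrine pancreas markers, 9 genes, differed across the groups compared. They summed to 216.4 to 277.9 CPM in TRDKO T3, 5484 to 5848 CPM in TRDKO control, 948.3 to 971.5 CPM in WT T3 and 55.54 to 56.81 CPM in WT control, where ptf1a was at 0. With T3, 8 of the 9 fell in TRDKO intestine and 7 of the 9 rose in WT intestine. In tail the same markers summed to 6.268 to 7.709 CPM in TRDKO T3, 68.33 to 73.87 CPM in TRDKO control, 1.855 to 2.019 CPM in WT T3 and 1.504 to 1.758 CPM in WT control. Of the 7 tested there, 6 fell with T3 in TRDKO and 6 were higher in TRDKO than in WT controls. Of the 9 intestinal epithelium markers, all 9 fell with T3 in TRDKO tail and 8 were higher in TRDKO than in WT control tails. In TRDKO control tails 1 of those 9 lay under 1 CPM, against 8 of 9 in WT control tails, where cdx1 and cdh17 were at 0. Macrophage and granulocyte markers, 5 genes, summed to 118.2 to 121.6 CPM in intestine TRDKO T3 and 65.21 to 67.91 CPM in intestine TRDKO control, and all 5 rose. In tail the 5 erythrocyte markers all fell with T3 in TRDKO, to 42.03 to 43.51 CPM against 90.59 to 91.56 CPM in control, and all 5 rose in WT, to 88.7 to 91.58 CPM against 62.7 to 65.2 CPM in control. The part of these cell types in the members' values was not tested.

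**Figure D1:**
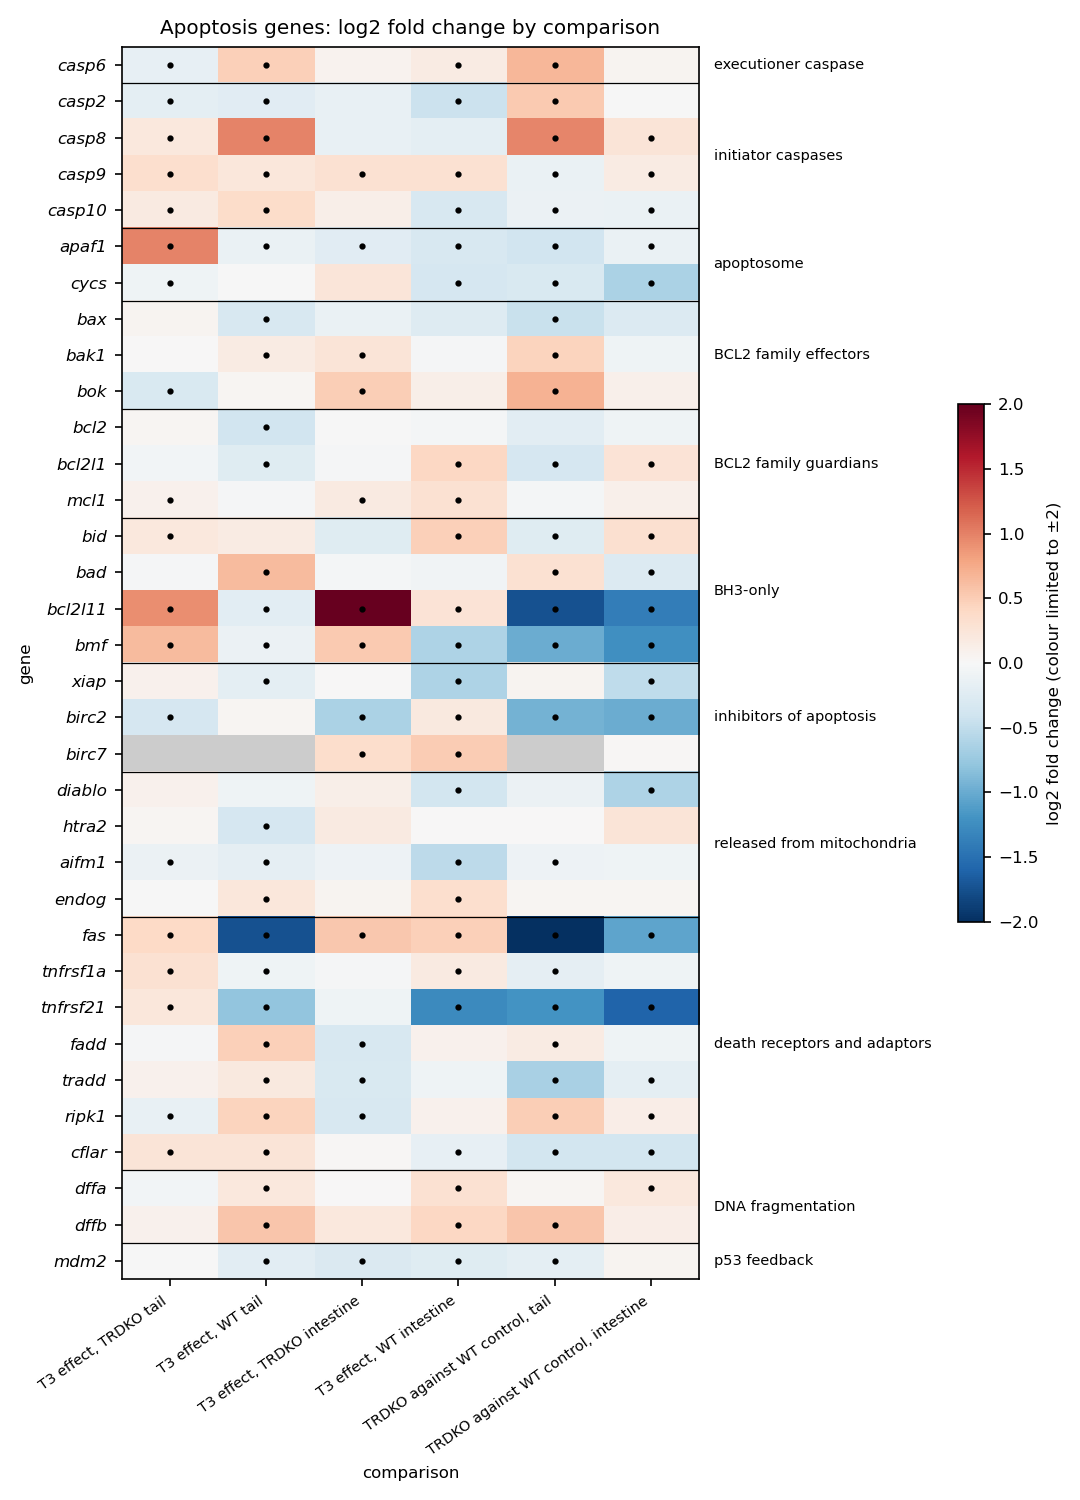
Log2 fold changes of the 34 members that passed the low-count filter in at least 1 organ (rows, grouped by role) in 6 comparisons (columns), as colour limited to ±2. Black dots mark calls at an adjusted p below 0.05, and grey cells mark birc7 in tail, where it was not tested. The darkest blue cells are fas, tnfrsf21 and bcl2l11 in TRDKO against WT controls of both organs, bmf in the same comparison of intestine, fas with T3 in WT tail and tnfrsf21 with T3 in WT intestine.

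Caspase 6, the executioner among the members, rose with T3 in WT tail and fell with T3 in TRDKO tail. In the XENTR_10.0 annotation of the files the gene occupies positions 68705777 to 68719366 of chromosome 1, plus strand. The casp6 level was 50.1, 52.1 and 49.5 CPM in tail TRDKO T3, against 59.1, 60.5 and 58.4 CPM in tail TRDKO control, and the groups did not overlap. In tail WT T3 it was 48.3, 51.7 and 51.8 CPM, against 36.97 and 35.2 CPM in tail WT control, so that WT control tails were the lowest of the 4 tail groups. The log2 fold change with T3 was -0.17 ± 0.03 (edgeR adjusted p = 6.68e-06) in TRDKO tail and 0.47 ± 0.04 (edgeR adjusted p = 2.25e-17) in WT tail. These effects differed, at a log2 difference of -0.64 ± 0.05 (edgeR adjusted p = 8.66e-19). TRDKO control tails exceeded WT control tails by 0.67 ± 0.04 (edgeR adjusted p = 7.72e-28). In intestine casp6 was several times more abundant than in tail, at 215, 219 and 228 CPM in TRDKO T3, against 206, 212 and 212 CPM in TRDKO control. It was 226, 238 and 227 CPM in intestine WT T3, against 199, 206 and 208 CPM in WT control. The WT intestinal rise of 0.16 ± 0.04 (edgeR adjusted p = 0.00412) passed. The TRDKO value of 0.07 (edgeR adjusted p = 0.225) did not, and the difference between them, -0.10 (edgeR adjusted p = 0.192), did not pass either. That difference passed at -0.11 (edgeR adjusted p = 0.00358) when the divergent replicate 3 of intestine TRDKO T3 was left out.

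**Figure D2:**
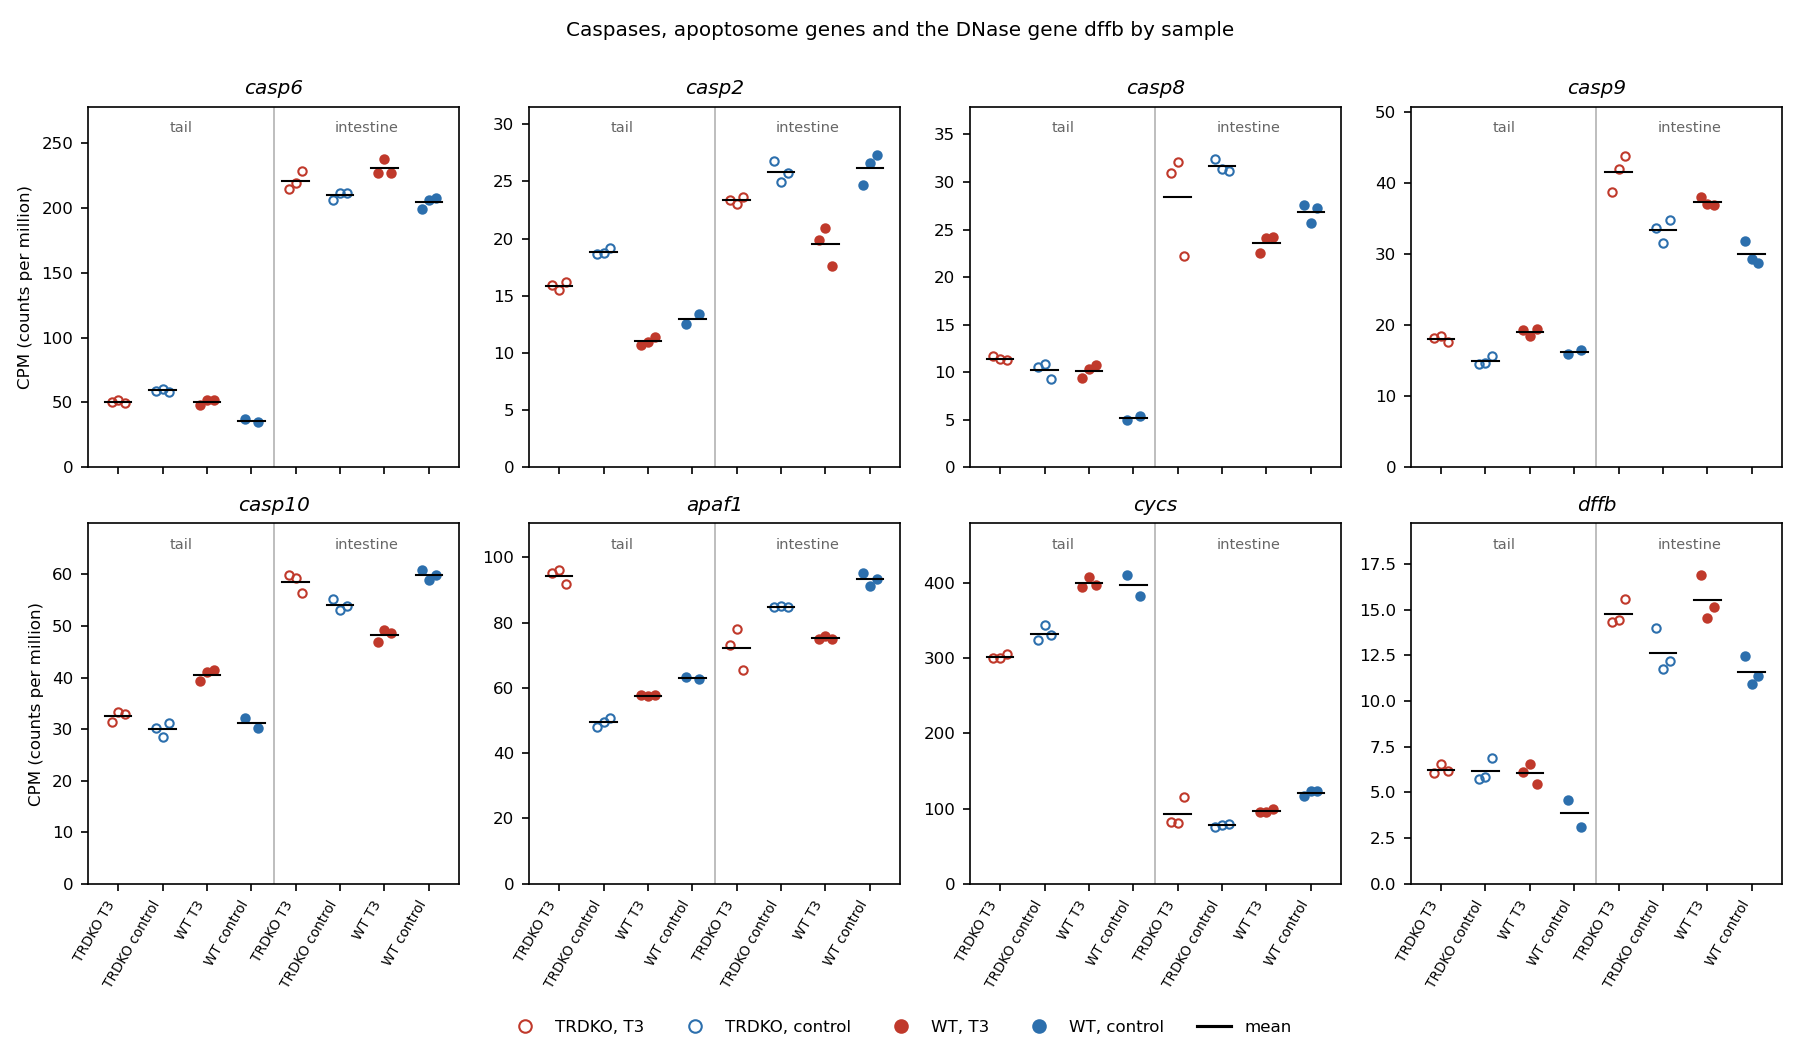
Level of 8 members, the caspases, the apoptosome genes apaf1 and cycs and the DNase gene dffb, in every sample, in CPM on linear axes that start at 0; open circles are TRDKO, filled circles WT, red T3, blue control, and bars the group mean. The 2 tail WT control samples lie lowest of all tail samples for casp8, casp6 and dffb, and the 3 tail TRDKO T3 samples lie highest for apaf1.

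Among the initiators, casp8 showed the largest tail difference. Caspase 8 is the initiator of the death receptor route, and casp8 lies on chromosome 9 from 53880882 to 53904991 beside casp10 and the inhibitor gene cflar, all on the minus strand within 131.1 kilobases. Tail TRDKO T3 samples had 11.7, 11.4 and 11.3 CPM of casp8, against 10.6, 10.8 and 9.32 CPM in tail TRDKO control, a log2 rise of 0.21 ± 0.07 (edgeR adjusted p = 0.00683). Tail WT T3 samples had 9.36, 10.4 and 10.8 CPM, against 4.93 and 5.35 CPM in tail WT control, a rise of 0.99 ± 0.10 (edgeR adjusted p = 1.89e-15). The WT control tails thus lay below every other tail sample, and TRDKO control tails exceeded them by 0.98 ± 0.09 (edgeR adjusted p = 3.78e-16). The difference between the 2 hormone effects was -0.78 ± 0.12 (edgeR adjusted p = 2.91e-08). The small TRDKO rise was lost with DESeq2, in a fit of all 8 groups and without tail TRDKO control replicate 3. In intestine casp8 did not pass with T3, at -0.15 (edgeR adjusted p = 0.229) in TRDKO and -0.19 (edgeR adjusted p = 0.108) in WT. Of the intestine TRDKO T3 libraries, at 30.9, 32.1 and 22.2 CPM, replicate 3 lay below its partners. Without it the WT value passed at -0.20 (edgeR adjusted p = 0.000595) and the TRDKO value was -0.01 (edgeR adjusted p = 0.921). The genotype difference in the casp8 effect, 0.04 with all libraries, did not pass. It passed at 0.19 (edgeR adjusted p = 0.0194) without replicate 3. The TRDKO excess over WT control intestine, 0.25 ± 0.10 (edgeR adjusted p = 0.0444), was lost in 13 of the alternatives run.

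The neighbouring casp10, also an initiator of the death receptor route, rose with T3 in tails of both genotypes and fell in WT intestine. Its level was 39.4, 41.01 and 41.4 CPM in tail WT T3, against 32.1 and 30.2 CPM in tail WT control, and 46.9, 49.3 and 48.7 CPM in intestine WT T3, against 60.8, 58.9 and 59.97 CPM in intestine WT control. The log2 fold change was 0.18 ± 0.04 (edgeR adjusted p = 0.000235) in TRDKO tail, 0.36 ± 0.05 (edgeR adjusted p = 6.36e-11) in WT tail and -0.32 ± 0.04 (edgeR adjusted p = 1.95e-05) in WT intestine. In TRDKO intestine the casp10 value of 0.11 did not pass, but it passed at 0.14 (edgeR adjusted p = 0.00157) without intestine TRDKO T3 replicate 3. The genotype difference in intestine passed at 0.42 with all libraries. For casp10 the WT effect in tail exceeded that in intestine by 0.62 ± 0.06 (edgeR adjusted p = 8.93e-09). Caspase 9, the initiator activated on the apoptosome, rose with T3 in all 4 settings. In tail casp9 lay at 18.2, 18.4 and 17.6 CPM in TRDKO T3, against 14.6, 14.7 and 15.7 CPM in TRDKO control, and at 19.4, 18.5 and 19.5 CPM in WT T3, against 15.9 and 16.5 CPM in WT control. In intestine it lay at 38.8, 41.99 and 43.8 CPM in TRDKO T3, against 33.7, 31.5 and 34.8 CPM in TRDKO control, and at 38.01, 37.03 and 36.96 CPM in WT T3, against 31.8, 29.4 and 28.8 CPM in WT control. T3 samples exceeded the controls of their own genotype and organ in each case. The casp9 log2 rises were 0.33 ± 0.06 (edgeR adjusted p = 3.7e-07) in TRDKO tail and 0.23 ± 0.06 (edgeR adjusted p = 0.000659) in WT tail. They were 0.31 ± 0.06 (edgeR adjusted p = 0.00109) in TRDKO intestine and 0.31 ± 0.06 (edgeR adjusted p = 0.000761) in WT intestine. Neither difference between genotypes passed, at 0.10 (edgeR adjusted p = 0.302) in tail and 0.00 (edgeR adjusted p = 0.983) in intestine. The WT tail rise was lost when the summed tail WT control sample was left out. The gene casp2, an initiator tied to p53 and the cell cycle, fell with T3 in TRDKO tail, at a log2 difference of -0.19 ± 0.05 (edgeR adjusted p = 0.00209), and in WT tail, at a log2 difference of -0.23 ± 0.07 (edgeR adjusted p = 0.00472). It fell in WT intestine, at a log2 difference of -0.43 ± 0.07 (edgeR adjusted p = 8.52e-05). In TRDKO intestine the casp2 value of -0.15 did not pass, but it passed at -0.16 (edgeR adjusted p = 0.0224) without intestine TRDKO T3 replicate 3. The WT tail fall of casp2 was lost without tail WT control replicate 2. TRDKO control tails had more casp2 than WT control tails, by 0.52 ± 0.06 (edgeR adjusted p = 5.27e-12).

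The apoptosome gene apaf1 rose with T3 in TRDKO tail and in none of the other settings. It lies on chromosome 3 from 48271041 to 48312432 on the minus strand. Tail TRDKO T3 libraries had 95.2, 96.2 and 91.8 CPM, against 48.1, 49.6 and 50.6 CPM in tail TRDKO control. Tail WT T3 libraries had 57.8, 57.4 and 57.7 CPM, against 63.5 and 62.7 CPM in tail WT control. The 3 TRDKO T3 libraries were therefore far above the other 8 tail samples, and WT T3 tails lay a little below their controls. The log2 fold change was 0.99 ± 0.03 (edgeR adjusted p = 7.77e-47) in TRDKO tail and -0.14 ± 0.04 (edgeR adjusted p = 0.000265) in WT tail. The genotype difference was 1.14 ± 0.05 (edgeR adjusted p = 1.33e-37). In TRDKO the effect in tail exceeded that in intestine by 1.22 ± 0.06 (edgeR adjusted p = 4.27e-15). In intestine apaf1 fell with T3, at a log2 difference of -0.23 ± 0.05 (edgeR adjusted p = 0.00232) in TRDKO and -0.32 ± 0.05 (edgeR adjusted p = 0.000116) in WT. Cytochrome c, encoded by cycs, belongs to the respiratory chain in living cells and binds APAF1 once released. The cycs level in intestine was 76.04, 77.98 and 79.03 CPM in TRDKO control, against 117, 124 and 123 CPM in WT control, a difference of -0.63 ± 0.10 (edgeR adjusted p = 0.000118). In WT intestine cycs fell with T3, at a log2 difference of -0.34 ± 0.10 (edgeR adjusted p = 0.0102). In TRDKO intestine the T3 value of 0.24 (edgeR adjusted p = 0.073) did not pass, with replicate 3 as the highest of 82.4, 80.8 and 115 CPM.

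Within the BCL2 family the effectors moved little and in different directions. The effector gene bax, whose product opens the outer mitochondrial membrane, fell with T3 in WT tail, to 12.1, 12.6 and 12.2 CPM in T3 against 15.9 and 14.1 CPM in control, at a log2 difference of -0.32 ± 0.07 (edgeR adjusted p = 3.36e-05). It was also lower in TRDKO than in WT control tails, at a log2 difference of -0.45 ± 0.07 (edgeR adjusted p = 8.97e-09), and in TRDKO tail its T3 value was 0.06 (edgeR adjusted p = 0.495). The second effector gene, bak1, was higher in TRDKO than in WT control tails, by 0.44 ± 0.06 (edgeR adjusted p = 4.75e-11). It rose with T3 in WT tail by 0.16 ± 0.06 (edgeR adjusted p = 0.0133) and in TRDKO intestine by 0.25 ± 0.07 (edgeR adjusted p = 0.012). The bak1 rise in WT tail was lost in 3 alternatives, and that in TRDKO intestine without intestine TRDKO control replicate 1. The gene bok, for an effector that acts without BAX and BAK, had 4.55, 4.35 and 4.54 CPM in TRDKO control tails, against 2.798 and 2.57 CPM in WT control tails, a difference of 0.69 ± 0.13 (edgeR adjusted p = 2.8e-06). With T3 bok went opposite ways in the TRDKO organs, -0.31 ± 0.11 (edgeR adjusted p = 0.0158) in tail and 0.49 ± 0.12 (edgeR adjusted p = 0.00481) in intestine. These effects differed, at a log2 difference of -0.81 ± 0.15 (edgeR adjusted p = 0.000164). Its TRDKO tail fall was lost with DESeq2 and without tail TRDKO T3 replicate 1 or 2.

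The guardians among the members, bcl2, bcl2l1 and mcl1, whose products hold the effectors in check, changed by less than 2-fold in every T3 comparison. The gene bcl2l1, for BCL-XL, is on chromosome 10 and went opposite ways in the 2 organs of WT tadpoles. Tail WT T3 samples had 57.6, 53.9 and 57.4 CPM, against 69.2 and 60.9 CPM in tail WT control, a log2 difference of -0.24 ± 0.05 (edgeR adjusted p = 1.07e-05). Intestine WT T3 libraries had 73.9, 73.8 and 70.3 CPM, against 53.4, 54.6 and 53.7 CPM in intestine WT control, a rise of 0.42 ± 0.08 (edgeR adjusted p = 0.000276). The organ difference was -0.71 ± 0.10 (edgeR adjusted p = 3.08e-06). In TRDKO the bcl2l1 values with T3, -0.06 (edgeR adjusted p = 0.24) in tail and -0.02 (edgeR adjusted p = 0.834) in intestine, did not pass. The intestinal value passed at -0.13 (edgeR adjusted p = 0.00166) when intestine TRDKO T3 replicate 3 was left out. The gene mcl1, for a short-lived guardian, was the most abundant member per kilobase in intestine, at 175 ± 3.75 CPM per kilobase in WT control (SD, n = 3). There it rose with T3 by 0.18 ± 0.05 (edgeR adjusted p = 0.0132) in TRDKO and 0.30 ± 0.05 (edgeR adjusted p = 0.000171) in WT. The TRDKO rise was lost without intestine TRDKO control replicate 1 or 3. The gene bcl2 was scarce, at 4.68, 3.64 and 3.62 CPM in tail WT T3, against 5.45 and 4.73 CPM in tail WT control. The fall, at a log2 fold change of -0.39 ± 0.12 (edgeR adjusted p = 0.0038), was lost without the summed tail WT control sample, and no other T3 value of bcl2 passed.

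The strongest hormone response of any member was that of bcl2l11, which encodes the BH3-only protein BIM, a blocker of all guardians. The gene lies on chromosome 5 from 40227343 to 40270751 on the minus strand. Intestine TRDKO T3 libraries had 146, 150 and 106 CPM, against 34.4, 32.6 and 32.9 CPM in intestine TRDKO control. Intestine WT T3 libraries had 106, 108 and 107 CPM, against 89.8, 87.98 and 86.2 CPM in intestine WT control. TRDKO controls were the lowest group in intestine and all 3 TRDKO T3 libraries were above them, with replicate 3 the lowest of the 3. The log2 rise was 2.01 ± 0.10 (edgeR adjusted p = 1.08e-09) in TRDKO and 0.27 ± 0.09 (edgeR adjusted p = 0.0191) in WT, and the genotype difference was 1.73 ± 0.13 (edgeR adjusted p = 1.19e-07). Without replicate 3 the TRDKO rise was 2.15 (edgeR adjusted p = 3.16e-72). The WT rise was lost without WT T3 replicate 2 and without WT control replicate 2 or 3.

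In tail bcl2l11 again rose with T3 in TRDKO, whereas it fell in WT. Tail TRDKO T3 libraries had 33.8, 37.8 and 36.4 CPM, against 19.5, 18.4 and 21.2 CPM in tail TRDKO control, a rise of 0.93 ± 0.05 (edgeR adjusted p = 7.56e-31). Tail WT T3 libraries had 55.98, 55.05 and 56.7 CPM, against 64.2 and 64.3 CPM in tail WT control, a log2 difference of -0.21 ± 0.04 (edgeR adjusted p = 1.05e-06). In tail the TRDKO T3 level stayed below both WT groups, whereas in intestine 2 of the 3 TRDKO T3 libraries lay above all WT libraries. TRDKO controls were below WT controls, at a log2 difference of -1.74 ± 0.05 (edgeR adjusted p = 3.07e-52) in tail and -1.39 ± 0.10 (edgeR adjusted p = 2.96e-08) in intestine. The genotype difference in the T3 effect in tail was 1.14 ± 0.06 (edgeR adjusted p = 7.75e-30).

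A further BH3-only gene, bmf, whose product is bound to the cytoskeleton in healthy cells and freed on detachment, also rose with T3 in TRDKO tadpoles. Tail TRDKO T3 libraries had 49.3, 48.1 and 47.8 CPM, against 32.5, 31.4 and 32.9 CPM in tail TRDKO control. Intestine TRDKO T3 libraries had 134, 130.2 and 113 CPM, against 88.6, 88.8 and 84.3 CPM in intestine TRDKO control. In both organs the TRDKO controls held the lowest values and T3 samples lay above them, with rises of 0.64 ± 0.04 (edgeR adjusted p = 5.98e-27) in tail and 0.52 ± 0.05 (edgeR adjusted p = 3.91e-06) in intestine. In WT intestine bmf fell with T3, to 134, 135 and 134 CPM against 209, 202 and 202 CPM in control, at a log2 difference of -0.61 ± 0.05 (edgeR adjusted p = 3.14e-07). The WT tail fall, at a log2 fold change of -0.11 ± 0.04 (edgeR adjusted p = 0.00809), was lost in 5 alternatives, DESeq2 among them. TRDKO controls were below WT controls, at a log2 difference of -1.0 ± 0.04 (edgeR adjusted p = 2.46e-39) in tail and -1.22 ± 0.05 (edgeR adjusted p = 2.36e-10) in intestine. For bmf the genotype differences in the T3 effect were 0.75 ± 0.05 (edgeR adjusted p = 8.54e-23) in tail and 1.13 ± 0.08 (edgeR adjusted p = 3.1e-08) in intestine.

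The remaining BH3-only members moved less. The gene bad, whose product binds BCL-XL when growth factor signals stop, rose with T3 in WT tail, to 67.6, 66.6 and 65.97 CPM against 43.5 and 40.97 CPM in control, by 0.64 ± 0.04 (edgeR adjusted p = 6.99e-27). In TRDKO tail, with 52.3, 49.7 and 50.8 CPM in T3 against 54.96, 51.4 and 54.6 CPM in control, its value was -0.02 (edgeR adjusted p = 0.703), and the genotype difference was -0.65 ± 0.05 (edgeR adjusted p = 2.99e-20). The gene bid, whose product links caspase 8 to mitochondria, had 19.3, 17.9 and 17.3 CPM in intestine WT T3, against 12.6, 12.6 and 13.8 CPM in intestine WT control, a rise of 0.47 ± 0.10 (edgeR adjusted p = 0.000833). In TRDKO intestine its value was -0.24 (edgeR adjusted p = 0.0705), and it passed at -0.35 (edgeR adjusted p = 6.78e-05) without intestine TRDKO T3 replicate 3. The genotype difference for bid in intestine was -0.71 ± 0.14 (edgeR adjusted p = 0.000719). The p53-induced bbc3, for PUMA, had too few counts to test. Its span overlaps that of htra2 on chromosome 1 from 331144 to 331864 on the same strand. Whether their exons overlap there, so that reads could not be assigned to 1 gene, was not checked.

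**Figure D3:**
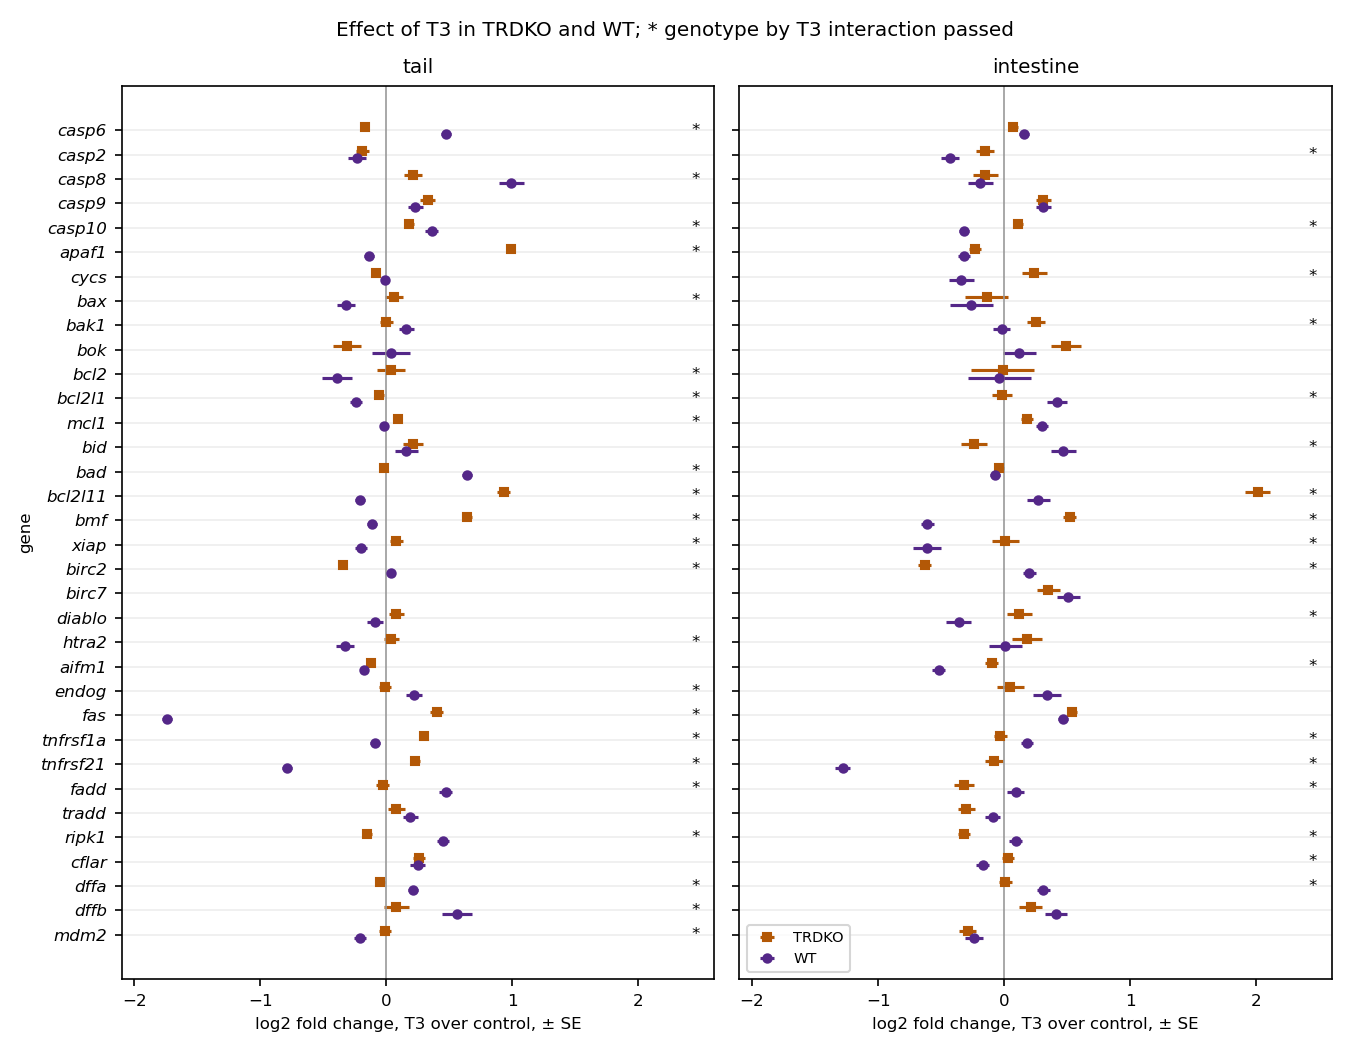
Log2 fold change of T3 over control (± SE) for 34 members in tail (left) and intestine (right), with TRDKO as squares and WT as circles; a star marks genes whose genotype by T3 interaction passed. The squares of apaf1, bcl2l11 and bmf lie to the right of the WT circles in tail, and the WT circle of fas in tail is the farthest left at -1.74.

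Of the death receptors, fas had the largest differences in tail. FAS recruits FADD and caspase 8 when bound by its ligand, and the gene lies on chromosome 7 from 12681897 to 12706965 on the minus strand. Tail TRDKO T3 libraries had 29.2, 28.5 and 27 CPM, against 21.7, 22.5 and 22.9 CPM in tail TRDKO control. Tail WT T3 libraries had 31.1, 32.8 and 31.1 CPM, against 106 and 103 CPM in tail WT control. The WT controls stood far above all other tail samples, and TRDKO control tails were the lowest. T3 raised fas in TRDKO tail by 0.40 ± 0.05 (edgeR adjusted p = 4.01e-12) and lowered it in WT tail, at a log2 difference of -1.74 ± 0.04 (edgeR adjusted p = 1.91e-58). The genotype difference was 2.13 ± 0.06 (edgeR adjusted p = 1.37e-49). TRDKO controls were below WT controls, at a log2 difference of -2.26 ± 0.04 (edgeR adjusted p = 7.46e-67).

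In intestine fas rose with T3 in both genotypes. Intestine TRDKO T3 libraries had 81, 79.4 and 78.01 CPM, against 53.1, 54.8 and 55.9 CPM in intestine TRDKO control, a rise of 0.54 ± 0.04 (edgeR adjusted p = 1.88e-07). Intestine WT T3 libraries had 162, 159 and 162 CPM, against 112, 118 and 114 CPM in intestine WT control, a rise of 0.47 ± 0.04 (edgeR adjusted p = 2.09e-07). The genotype difference of 0.06 (edgeR adjusted p = 0.395) did not pass, and TRDKO controls lay below WT controls, at a log2 difference of -1.06 ± 0.04 (edgeR adjusted p = 4.8e-11). In WT the T3 effect in tail differed from that in intestine, at a log2 difference of -2.27 ± 0.06 (edgeR adjusted p = 1.41e-21), the largest such difference of any member. In WT controls the fas difference between the organs, -0.06 (edgeR adjusted p = 0.17), did not pass. It passed at -0.09 (edgeR adjusted p = 0.00304) when intestine TRDKO T3 replicate 3 was left out of the fit.

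The gene tnfrsf21 encodes death receptor 6, a member of the TNF receptor family, and lies on chromosome 5. In tail its level was 38.3, 35.97 and 36.7 CPM in TRDKO T3, against 33.3, 34.4 and 30.8 CPM in TRDKO control, and 45.5, 42 and 40.8 CPM in WT T3, against 74.5 and 71.8 CPM in WT control. In intestine it was 13.9, 13.4 and 12.9 CPM in TRDKO T3, against 14.3, 12.9 and 14.9 CPM in TRDKO control, and 17.8, 18.01 and 17.5 CPM in WT T3, against 41.9, 43.6 and 43.5 CPM in WT control. In each organ the WT controls were the highest group by a wide margin. T3 lowered tnfrsf21 in WT, at a log2 difference of -0.79 ± 0.04 (edgeR adjusted p = 2.07e-32) in tail and -1.28 ± 0.06 (edgeR adjusted p = 2.94e-10) in intestine. In TRDKO tail it rose with T3 by 0.23 ± 0.04 (edgeR adjusted p = 1.62e-06), and in TRDKO intestine the value of -0.08 (edgeR adjusted p = 0.405) did not pass. The genotype differences in the T3 effect were 1.02 ± 0.06 (edgeR adjusted p = 8.39e-29) in tail and 1.21 ± 0.09 (edgeR adjusted p = 7.53e-08) in intestine. TRDKO controls were below WT controls, at a log2 difference of -1.20 ± 0.04 (edgeR adjusted p = 7.14e-45) in tail and -1.60 ± 0.06 (edgeR adjusted p = 2.76e-11) in intestine. The third receptor gene, tnfrsf1a, for TNF receptor 1, moved by at most 0.38 in any T3 effect or genotype difference, and its rise in TRDKO tail was 0.30 ± 0.03 (edgeR adjusted p = 5.43e-14).

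**Figure D4:**
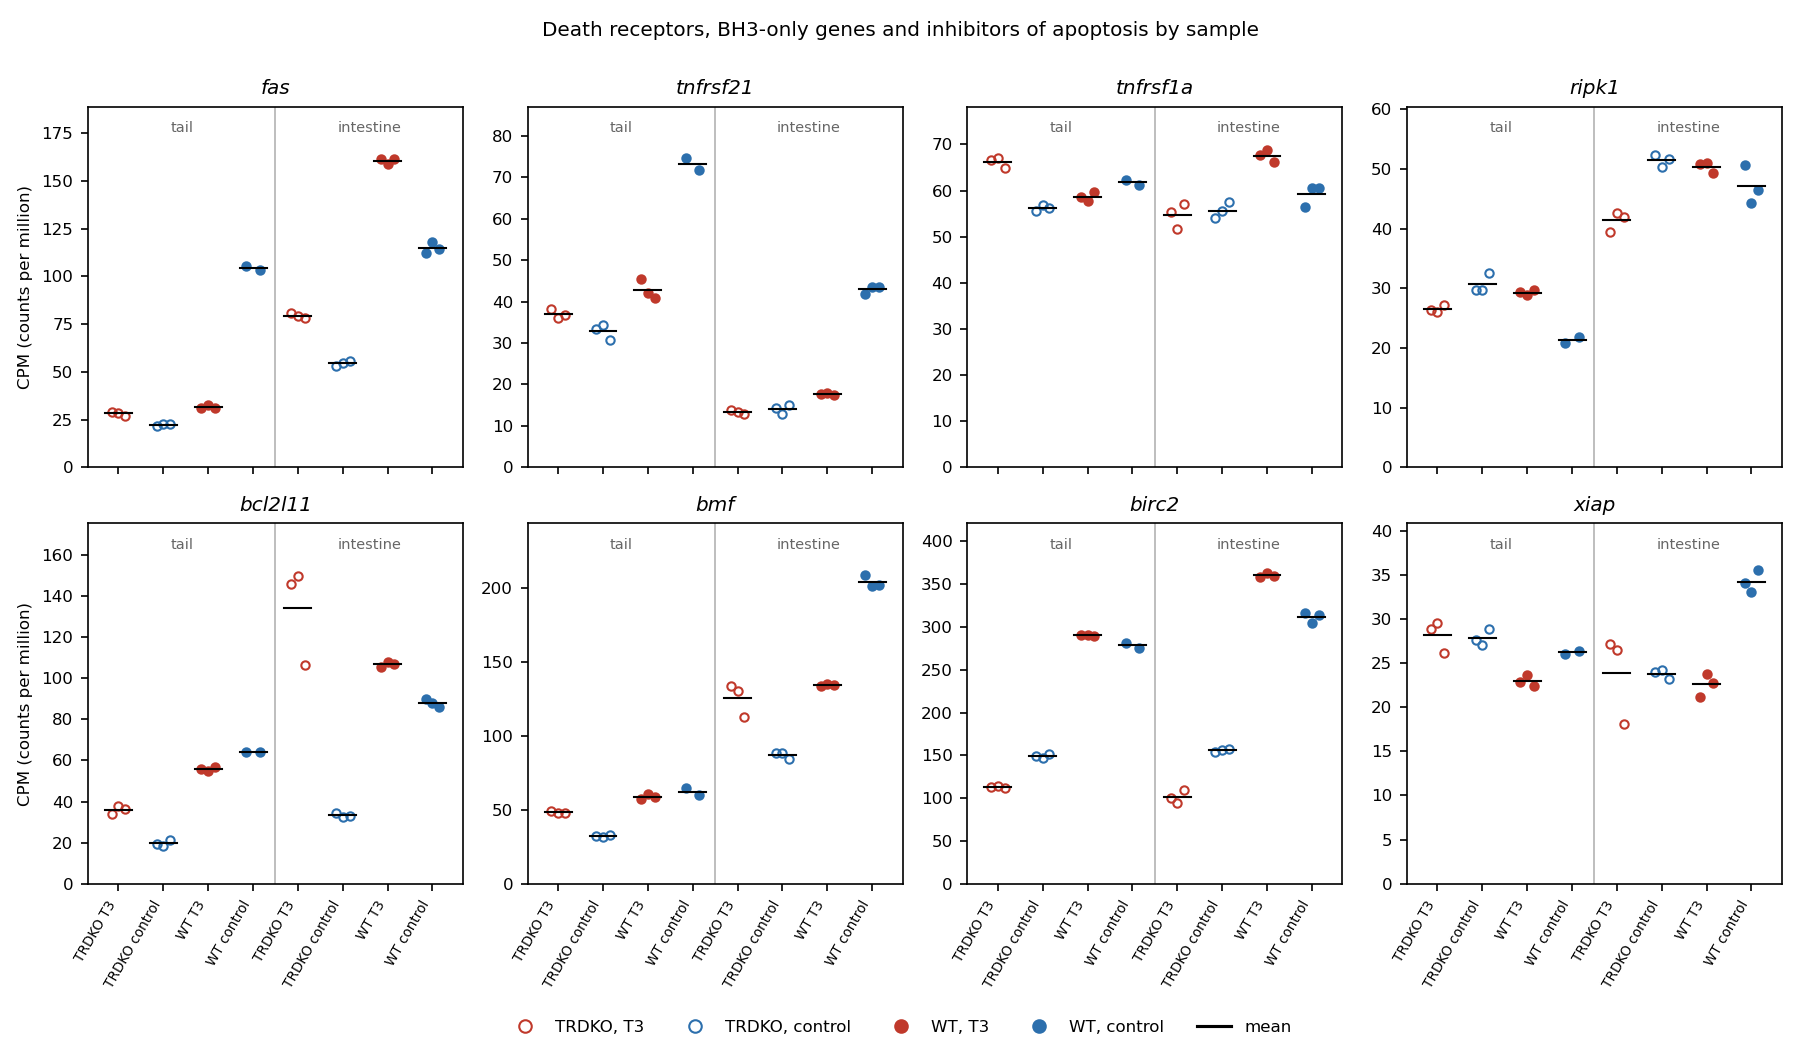
Level of 3 death receptors, the adaptor kinase ripk1, 2 BH3-only genes and 2 inhibitors of apoptosis in every sample, in CPM on linear axes that start at 0, with symbols for genotype and treatment as in the legend. For fas and tnfrsf21 in tail and for tnfrsf21 and bmf in intestine the WT controls lie above all other samples, and for birc2 all TRDKO samples lie below all WT samples.

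Adaptor genes behind these receptors rose in WT tail, where 35.4% of all genes rose. The gene fadd, for the adaptor that binds caspase 8, had 27.1, 25.9 and 26.8 CPM in tail WT T3, against 19.4 and 18.3 CPM in tail WT control, a rise of 0.47 ± 0.05 (edgeR adjusted p = 1.77e-12). The kinase gene ripk1, whose product passes TNF receptor signals to survival or death, had 29.3, 28.9 and 29.6 CPM in tail WT T3, against 20.9 and 21.8 CPM in tail WT control, a rise of 0.45 ± 0.05 (edgeR adjusted p = 5.5e-12). The groups did not overlap for either gene. All 4 of fadd, tradd, ripk1 and cflar rose in WT tail, with tradd, the adaptor of TNF receptor 1, at 0.19 and cflar at 0.25, and the tradd rise was lost in 3 alternatives. In TRDKO tail ripk1 fell with T3, to 26.4, 26.04 and 27.2 CPM against 29.8, 29.6 and 32.6 CPM in control, at a log2 difference of -0.15 ± 0.04 (edgeR adjusted p = 0.00314). That fall in TRDKO tail was lost without control replicate 3. The fadd value there was -0.03 (edgeR adjusted p = 0.692). In tail the genotype differences were -0.60 ± 0.07 (edgeR adjusted p = 2.32e-12) for ripk1 and -0.50 ± 0.07 (edgeR adjusted p = 6.64e-09) for fadd. In TRDKO intestine, where 20.3% of all genes fell with T3, fadd, ripk1 and tradd fell and cflar, at 0.03, did not pass. The log2 differences were -0.32 ± 0.08 (edgeR adjusted p = 0.00473) for fadd, -0.32 ± 0.05 (edgeR adjusted p = 0.000261) for ripk1 and -0.30 ± 0.07 (edgeR adjusted p = 0.0023) for tradd. The gene cflar, for the caspase 8 decoy FLIP, rose in TRDKO tail by 0.26 ± 0.05 (edgeR adjusted p = 3.31e-05) and in WT tail by 0.25 ± 0.06 (edgeR adjusted p = 5.72e-05). TRDKO controls had less cflar than WT controls, at a log2 difference of -0.36 ± 0.06 (edgeR adjusted p = 6.83e-08) in tail and -0.37 ± 0.05 (edgeR adjusted p = 2.66e-05) in intestine. For tradd too TRDKO control tails were lower, with 9.99, 10.3 and 11.1 CPM against 16.2 and 15.5 CPM in WT control, at a log2 difference of -0.65 ± 0.07 (edgeR adjusted p = 1e-13).

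Among the inhibitors of apoptosis, birc2 was lower in TRDKO than in WT in every group of both organs. The product, cIAP1, is a ubiquitin ligase that tags RIPK1, and the gene lies on chromosome 2 from 162207286 to 162218948 on the minus strand. Intestine TRDKO T3 libraries had 100.3, 94.5 and 109 CPM, against 154, 156 and 157 CPM in intestine TRDKO control, and WT T3 libraries had 358, 362 and 360 CPM, against 316, 305 and 313 CPM in WT control. Tail TRDKO T3 libraries had 113, 114 and 112 CPM, against 149, 147 and 152 CPM in tail TRDKO control, and WT T3 samples had 290.4, 291 and 289.9 CPM, against 282 and 275 CPM in WT control. No TRDKO library reached the lowest WT sample of its organ, and within TRDKO the T3 libraries were the lower ones. The difference between TRDKO and WT controls was -0.94 ± 0.02 (edgeR adjusted p = 2.16e-52) in tail and -0.99 ± 0.05 (edgeR adjusted p = 1.11e-09) in intestine. T3 lowered birc2 in TRDKO, at a log2 difference of -0.34 ± 0.02 (edgeR adjusted p = 8.4e-22) in tail and -0.63 ± 0.05 (edgeR adjusted p = 3.55e-07) in intestine. In WT its values were 0.04 (edgeR adjusted p = 0.0901) in tail, which did not pass, and 0.20 ± 0.05 (edgeR adjusted p = 0.00324) in intestine. The genotype differences in the T3 effect were -0.39 ± 0.03 (edgeR adjusted p = 1.42e-17) in tail and -0.83 ± 0.07 (edgeR adjusted p = 4.51e-07) in intestine.

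The gene xiap, for the inhibitor that binds caspases directly, had 21.1, 23.8 and 22.8 CPM in intestine WT T3, against 34.1, 33.01 and 35.6 CPM in intestine WT control. The WT controls were the highest intestine group, the log2 fold change with T3 was -0.61 ± 0.11 (edgeR adjusted p = 0.000243), and TRDKO controls were below WT controls, at a log2 difference of -0.51 ± 0.11 (edgeR adjusted p = 0.000902). In TRDKO intestine xiap showed 0.01 (edgeR adjusted p = 0.95) with T3, and the genotype difference was 0.62 ± 0.15 (edgeR adjusted p = 0.00398). The TRDKO value passed at 0.17 (edgeR adjusted p = 0.00873) when intestine TRDKO T3 replicate 3 was left out. The gene birc7, for livin, was an intestinal gene, with 18.1, 19.7 and 18.2 CPM in intestine WT T3, against 13.9, 12.5 and 12.6 CPM in intestine WT control. Its rise was 0.35 ± 0.09 (edgeR adjusted p = 0.00684) in TRDKO intestine and 0.51 ± 0.09 (edgeR adjusted p = 0.00024) in WT intestine, and in tail it stayed below 1 CPM in every group and was not tested.

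The members include 4 genes for proteins that leave the mitochondrion to promote death. With all libraries in the fit, T3 changed 1 of them in TRDKO tail, 3 in WT tail, none in TRDKO intestine and 3 in WT intestine. Over all genes the shares were 52.9%, 68.9%, 40.9% and 60.5% in the same order, so such counts of 4 genes are no result about the group. The gene aifm1, for apoptosis-inducing factor, had 134, 135 and 132 CPM in intestine WT T3, against 192, 188 and 191 CPM in intestine WT control, a log2 difference of -0.52 ± 0.05 (edgeR adjusted p = 6.21e-07). In TRDKO intestine the aifm1 value was -0.10 (edgeR adjusted p = 0.106), and it passed at -0.15 (edgeR adjusted p = 7.36e-07) without intestine TRDKO T3 replicate 3. The genotype difference for aifm1 was 0.42 ± 0.07 (edgeR adjusted p = 0.000175). The gene diablo, whose product frees caspases from XIAP, also fell in WT intestine, at a log2 difference of -0.36 ± 0.10 (edgeR adjusted p = 0.00591). Its T3 value of 0.12 in TRDKO intestine did not pass, but without intestine TRDKO T3 replicate 3 it passed at 0.25 (edgeR adjusted p = 0.000203). TRDKO control intestine had less diablo than WT control intestine, at a log2 difference of -0.62 ± 0.10 (edgeR adjusted p = 0.000113). The protease gene htra2 fell with T3 in WT tail, at a log2 difference of -0.33 ± 0.07 (edgeR adjusted p = 1.7e-05). The nuclease gene endog rose with T3 in WT tail by 0.22 ± 0.06 (edgeR adjusted p = 0.00047) and in WT intestine by 0.34 ± 0.11 (edgeR adjusted p = 0.0188). The intestinal rise was lost without intestine WT T3 replicate 2 or WT control replicate 3.

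The caspase-activated DNase gene dffb and its inhibitor and chaperone gene dffa rose with T3 in both WT organs. In tail dffb had 6.11, 6.55 and 5.47 CPM in WT T3, against 4.61 and 3.097 CPM in WT control, and TRDKO control tails, at 5.74, 5.86 and 6.87 CPM, were already near the WT T3 level. The dffb rises were 0.56 ± 0.12 (edgeR adjusted p = 3.31e-05) in WT tail and 0.41 ± 0.09 (edgeR adjusted p = 0.00108) in WT intestine. The TRDKO values, 0.08 (edgeR adjusted p = 0.493) in tail and 0.21 (edgeR adjusted p = 0.0669) in intestine, did not pass. TRDKO control tails exceeded WT control tails by 0.56 ± 0.12 (edgeR adjusted p = 1.31e-05). Of the genotype differences in the dffb effect, that in tail passed at -0.48 ± 0.16 (edgeR adjusted p = 0.00501) and that in intestine did not at -0.20 (edgeR adjusted p = 0.195). The tail difference was lost without tail WT control replicate 2. The dffa rises were 0.21 ± 0.04 (edgeR adjusted p = 3.49e-06) in WT tail and 0.31 ± 0.05 (edgeR adjusted p = 0.000197) in WT intestine. It was higher in TRDKO than in WT control intestine by 0.21 ± 0.05 (edgeR adjusted p = 0.00373). The gene mdm2, for the ligase that removes p53 and a p53 target itself, fell with T3 in WT tail, at a log2 difference of -0.21 ± 0.05 (edgeR adjusted p = 0.000119). In intestine it fell in TRDKO, at a log2 difference of -0.29 ± 0.07 (edgeR adjusted p = 0.00293), and in WT, at a log2 difference of -0.24 ± 0.07 (edgeR adjusted p = 0.00672).

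The differences between genotypes in the effect of T3 were themselves tested across the members. In tail 23 of 33 members passed, 13 with a higher and 10 with a lower effect in TRDKO, against 65.6% of all genes, 32.2% higher and 33.4% lower. With upper-quartile scaling the majority turned, to 9 higher and 14 lower. In intestine 18 of 34 passed, 11 higher and 7 lower, against 52.3% of all genes, 27.2% higher and 25.1% lower. There too it turned, to 8 higher and 10 lower with upper-quartile scaling and 10 higher and 11 lower in 1 fit of all 8 groups. Without intestine TRDKO T3 replicate 3 the intestinal count was 27, 15 higher and 12 lower, while the number called over all genes went from 8108 to 10560. The effect of T3 in tail differed from that in intestine for 19 of 34 members in WT, 11 higher and 8 lower (14 and 6 with upper-quartile scaling or RLE size factors), against 39.5% of all genes, 17.8% higher and 21.7% lower. In TRDKO the same organ difference passed for 15 of 34 members, 10 higher and 5 lower, against 31.6% of all genes, 17.4% higher and 14.2% lower. With the TRDKO groups fitted alone that count was 8, 3 higher and 5 lower, and with RLE size factors it was 13, 6 higher and 7 lower. Over all genes 4687 were called with the TRDKO groups alone and 5760 with RLE size factors, against 5653. The members' median difference was 0.05 between genotypes in tail, 0.04 in intestine, 0.11 between organs in WT and 0.02 in TRDKO, beside -0.034, 0.004, -0.059 and 0.031 over all genes.

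Between the organs of WT control tadpoles 30 of 34 members differed, 8 higher and 22 lower in tail, against 84.3% of all genes, 45% higher and 39.4% lower. The members' median log2 difference, tail over intestine, was -0.55, beside 0.08 over all genes. The members higher in tail were led by bcl2 at 1.89 ± 0.18 (edgeR adjusted p = 1.08e-10) and cycs at 1.79 ± 0.08 (edgeR adjusted p = 1.51e-15), followed by endog at 1.69 ± 0.09 (edgeR adjusted p = 4.07e-16) and tnfrsf21 at 0.85 ± 0.05 (edgeR adjusted p = 9.36e-15). Per kilobase, cycs was the most abundant member in tail, at 464 ± 23.2 CPM per kilobase in tail WT control (SD, n = 2), against 142 ± 4.58 CPM per kilobase in intestine WT control (SD, n = 3). The members lower in tail included the caspases and their regulators, with casp6 at -2.42 ± 0.05 (edgeR adjusted p = 2.65e-26), casp8 at -2.32 ± 0.11 (edgeR adjusted p = 3.61e-17) and bad at -2.03 ± 0.04 (edgeR adjusted p = 1.07e-25). All 5 caspases among the members were lower in tail. The lowest, birc7 at -6.54, passed the filter through its intestinal level alone and had to differ. The 4 members that did not pass were fas at -0.06 (edgeR adjusted p = 0.17), birc2 at -0.08 (edgeR adjusted p = 0.0959), mdm2 at 0.12 (edgeR adjusted p = 0.0728) and bax at 0.23 (edgeR adjusted p = 0.0957). When intestine TRDKO T3 replicate 3 was left out of the fit, mdm2 alone of these did not pass. The values were then -0.09 for fas (edgeR adjusted p = 0.00304), -0.11 for birc2 (edgeR adjusted p = 1.11e-05) and 0.21 for bax (edgeR adjusted p = 0.0046).

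**Figure D5:**
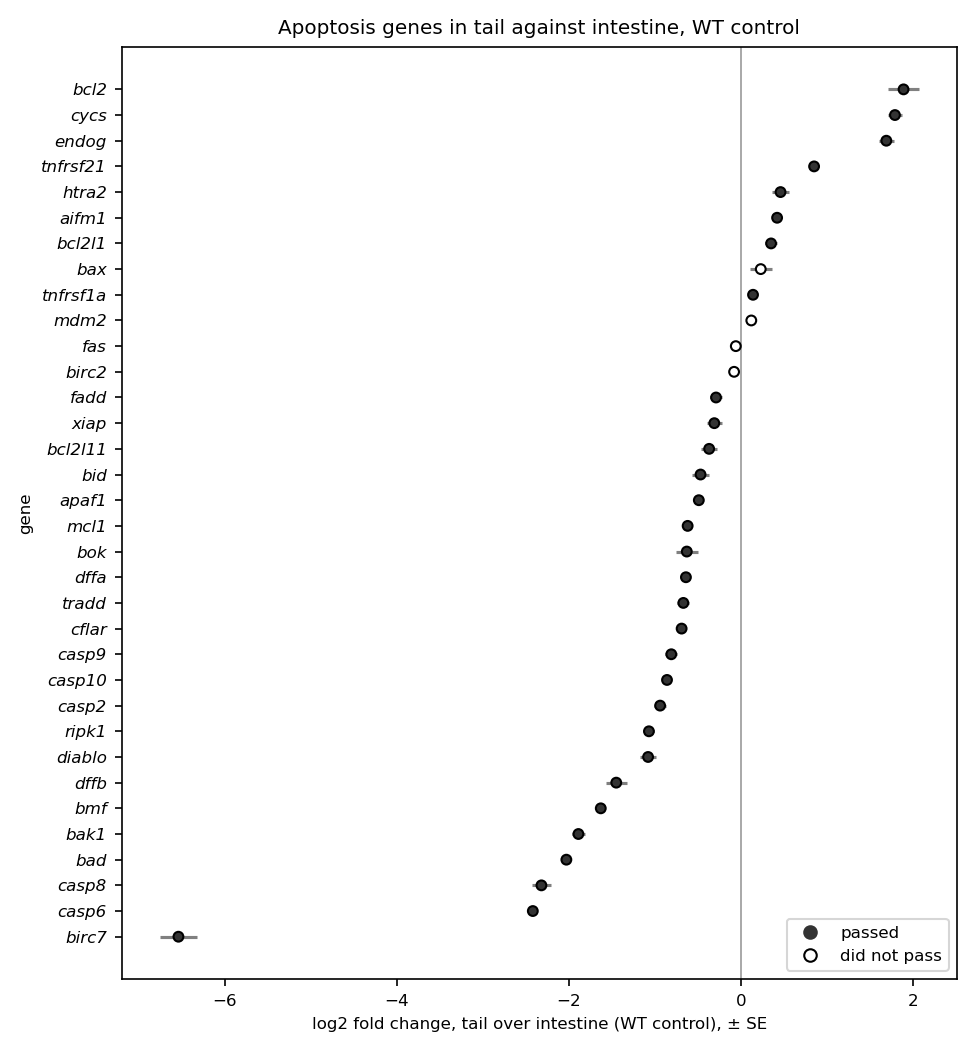
Log2 fold change of tail over intestine in WT controls (± SE) for the 34 members tested, ordered by value; filled circles passed and open circles did not. The caspases lie left of 0, and bcl2, cycs and endog lie farthest right.

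A wider list of other apoptosis genes had 73 rows in the table. T3 changed 46 of 71 tested in TRDKO tail, 27 up and 19 down, and 57 of 71 in WT tail, 23 up and 34 down. These are 64.8% and 80.3%, beside 52.9% and 68.9% of all genes. T3 changed 38 of 69 in TRDKO intestine, 18 up and 20 down, and 51 of 69 in WT intestine, 21 up and 30 down. These are 55.1% and 73.9%, beside 40.9% and 60.5% of all genes. The largest rises in intestine were the same 3 genes in both genotypes. The decoy receptor gene tnfrsf11b rose by 2.42 ± 0.09 (edgeR adjusted p = 7.75e-11) in TRDKO and 1.64 ± 0.09 (edgeR adjusted p = 2.16e-09) in WT. The cell cycle inhibitor gene cdkn1a rose by 1.66 ± 0.04 (edgeR adjusted p = 8.04e-13) in TRDKO and 1.38 ± 0.04 (edgeR adjusted p = 2.93e-12) in WT. The mitophagy receptor gene bnip3 rose by 1.73 ± 0.05 (edgeR adjusted p = 4.23e-12) in TRDKO and 1.10 ± 0.05 (edgeR adjusted p = 3.5e-10) in WT. In the same intestines bnip3 averaged 1622 CPM in TRDKO T3, 487 CPM in TRDKO control, 1723 CPM in WT T3 and 799 CPM in WT control.

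Of the largest falls on that list, those of bag3 and aifm2 in WT were set against WT controls above every other group, as for fas and tnfrsf21 in tail. The co-chaperone gene bag3 had 8.07, 6.53 and 6.97 CPM in intestine TRDKO T3, 8.16, 9.05 and 7.98 CPM in TRDKO control, 10.1, 9.603 and 9.66 CPM in WT T3 and 154, 150 and 155 CPM in WT control. The log2 fold change with T3 in WT was -3.97 ± 0.07 (edgeR adjusted p = 6.32e-15). The ferroptosis suppressor gene aifm2 had 20.9, 21.1 and 19.6 CPM in tail TRDKO T3, 32.4, 30.2 and 32.7 CPM in TRDKO control, 16.7, 16.99 and 15.8 CPM in WT T3 and 143 and 141 CPM in WT control. The log2 fold change with T3 in WT was -3.12 ± 0.04 (edgeR adjusted p = 3.12e-75). The largest WT tail rises of that list were aifm3 at 1.90 ± 0.11 (edgeR adjusted p = 5.21e-28), tnf, for the ligand of TNF receptor 1, at 1.56 ± 0.18 (edgeR adjusted p = 1.1e-12), and the necroptosis kinase row ripk3.2 at 1.17 ± 0.07 (edgeR adjusted p = 3.8e-27). In TRDKO tail the leading rises were ripk3.1 at 1.35 ± 0.25 (edgeR adjusted p = 2.68e-06), the nuclease gene aen at 0.97 ± 0.11 (edgeR adjusted p = 8.78e-12) and cidea at 0.93 ± 0.09 (edgeR adjusted p = 1.69e-15).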

How the data were processed

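RNA was sequenced from stranded total RNA libraries of tail and intestine, per the labels' protocols. The submitters' processing notes name cutadapt 3.2, STAR 2.7.7a and featureCounts (Subread 2.0.1). What was deposited are raw whole-number counts per gene, made per the file headers with an XENTR_10.0 annotation, reverse-strand counting of read pairs, primary alignments only and marked duplicates ignored. Reads shared by paralogs or by overlapping genes can therefore be misplaced, and abundant genes can be understated.

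Counts were filtered with filterByExpr, scaled by trimmed means of M values and fitted per organ with 1 coefficient per group, in edgeR 4.0.16 (limma 3.58.1, R 4.3.3). Contrasts were tested by the robust quasi-likelihood F test, with Benjamini-Hochberg adjustment over all 17018 genes of the tail fit, 15491 of the intestine fit or 17887 of the fit of both organs, at a threshold of 0.05. The SE is the size of the log2 fold change divided by the square root of F. Levels in CPM were scaled over all 23 samples, so their ratios can differ a little from the fold changes. The procedure was run on simulated data with few changed genes and 1 spread for both organs. In the real counts most genes were called in most comparisons and the tail spread was smaller. The simulation therefore does not show how the procedure performs on these data.

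Members and lists were chosen with earlier results of these data known. The rule picked up to 4 rises and 4 falls of members per contrast that passed, with at least 1 CPM in the higher group. Values of further members are given as well. Among the other apoptosis genes the rule picked up to 3 of each, where genes almost absent from 1 side are left out. Some genes of that wider list are not reported here. Alternatives were other scalings, DESeq2 1.42.0, limma-voom, no filter, a replicate block, 1 fit of all groups and leaving out each library.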

Additional observations from a re-analysis of the deposited data

Results flagged for a closer look

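Each value here is a difference between log2 effects of T3 (T3 over control) that passed its own interaction test in edgeR, among the up to 4 largest differences in each direction. They were singled out because the effect of T3 differed between TRDKO and WT, or between tail and intestine, by that test. Of all genes, 65.6% passed the genotype test in tail and 52.3% in intestine. The organ test was passed by 39.5% in WT and 31.6% in TRDKO, so passing is no mark of these members. How many of all genes had effects of opposite sign is not given here. No explanation was tested.

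In tail, the effect in TRDKO exceeded the effect in WT by 2.13 for fas, 1.14 for apaf1, 1.14 for bcl2l11 and 1.02 for tnfrsf21. It was below the effect in WT for casp8 (-0.78), bad (-0.65), casp6 (-0.64) and ripk1 (-0.60). For fas, apaf1, bcl2l11, tnfrsf21, casp6 and ripk1 the effects had opposite signs and each passed its own test.

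In intestine, the effect in TRDKO exceeded the effect in WT by 1.73 for bcl2l11, 1.21 for tnfrsf21, 1.13 for bmf and 0.62 for xiap. It was below the effect in WT for birc2 (-0.83), bid (-0.71), bcl2l1 (-0.45) and fadd (-0.41). For bmf and birc2 the effects had opposite signs and each passed its own test.

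In WT tadpoles, the effect in tail exceeded that in intestine by 1.13 for casp8, 0.66 for bad, 0.62 for casp10 and 0.46 for bmf. It was below the intestinal effect for fas (-2.27), bcl2l1 (-0.71), bcl2l11 (-0.54) and htra2 (-0.39).

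In TRDKO tadpoles, the effect in tail exceeded that in intestine by 1.22 for apaf1, 0.45 for bid, 0.38 for tradd and 0.36 for casp8. It was below the intestinal effect for bcl2l11 (-1.08), bok (-0.81), cycs (-0.33) and bak1 (-0.25). Without the divergent replicate 3 of intestine TRDKO T3 the cycs difference shrank to -0.13, and those of bcl2l11, bok and bak1 were -1.20, -0.90 and -0.34. In that fit the differences were 1.18 for apaf1, 0.58 for bid, 0.44 for tradd and 0.24 for casp8.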

How the results depend on the processing

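Across all alternatives, which were other scalings, DESeq2, limma-voom, no filter, a replicate block, 1 fit of all groups and leaving out each library, no call of a member reversed. Of the 234 member calls in the 11 comparisons, 179 were kept in every alternative and 55 were lost in at least 1. Of the 88 member values picked by the rule for the largest rises and falls, 79 were kept in every alternative and 9 were lost somewhere. The values given for further members are not in these counts, and several of them were lost in at least 1 alternative. The count of members whose T3 effect differed between organs in TRDKO was 8 with the TRDKO groups alone and 15 with all groups. Over all genes the counts were 4687 and 5653, and the cause was not tested. Same-numbered libraries showed no shared deviation (correlations from -0.03 to 0.024), with organs compared in WT controls only. Apart from intestine TRDKO T3 replicate 3, mean chi-squares within groups were 1.013 to 2.148, so much of these deviations was counting noise. The correlations therefore cannot decide whether the numbers pair samples. With a replicate block the counts of called members were 15 for T3 in TRDKO intestine and 24 in WT intestine. Over all genes they were 6060 and 9238 with the block, against 6343 and 9379. In tail the block was fitted with the WT control libraries kept separate, which gave 19 in TRDKO and 28 in WT, as did keeping them separate without a block. Over all genes the tail fits with that block gave 8952 and 11731 calls, against 8999 and 11723. The split of higher against lower calls over all genes moved by over 10 percentage points with upper-quartile scaling, to 61.4% higher for TRDKO against WT control intestine (50.3% before) and to 39.8% higher for T3 in TRDKO tail (50.5% before). Under that scaling 10 members were higher and 10 lower in TRDKO than in WT control intestine, against 6 and 13. For the organ difference of the T3 effect in TRDKO the share higher was 41.5% with RLE size factors, 41% with DESeq2, 44% without a filter and 43.4% with TRDKO alone, against 55%. The htra2 organ difference in WT was lost in 12 alternatives. Of the flagged organ differences in TRDKO, that of bak1 was lost in 8 alternatives, casp8 in 6 and cycs in 5. Those of bid and tradd were lost in 1 each, the fit of TRDKO groups alone.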
